A study of Homo sapiens with 21 samples.

Results

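The genes described here are 43 genes of G2 and mitosis. They were listed by function and not by a rule on measured values, but with earlier results of these data known. They were read from Illumina expression arrays of a study of mismatch repair defects in cultured human cells. They are 43 of 20046 genes with a probe, and all 43 were found, covered by 64 of the 30113 probes that carry 1 gene. Of the 43 genes, 26 have 1 probe and 17 have several, in which case the brightest probe stands for the gene. Values are log2 of the deposited probe intensity plus 16, after quantile normalization over all 21 arrays. A difference of 1 on this scale is a doubling of the signal.

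The 21 arrays form 7 groups of 3. In KLE, an endometrial carcinoma line, 2 groups carry short hairpin RNAs against MSH3 (shMSH3, hairpins 059 and 062), 2 carry hairpins against MSH6 (shMSH6, hairpins 543 and 603), and 1 carries the control hairpin shCTRL. The remaining groups are of HCT116, which comes from a colorectal carcinoma, and of MCF10A, a non-tumorigenic mammary epithelial line, which the labels call only CTRL. All 5 KLE groups carry a hairpin, so no untreated KLE arrays were analysed here, and the labels give neither the hairpin's delivery nor whether a group is 1 clone. The titles of the KLE samples carry the replicate letters A, B and C. Nothing in the labels says that the 3 samples of a group came from separate cultures, so p-values measure the spread between these samples, which may be technical.

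Progression into mitosis is driven by CDK1 bound to cyclin A2 or cyclin B, which CDC25 phosphatases switch on and which cooperates with the Polo-like and Aurora kinases. The spindle assembly checkpoint then holds the anaphase-promoting complex (APC/C) inactive until kinetochores are attached, after which CDC20 and UBE2C let the APC/C tag securin and cyclin B for destruction and separase opens cohesin. The transcripts of these genes peak together late in the cell cycle, under MuvB-containing complexes with B-MYB and FOXM1, and many of their promoters hold CCAAT boxes and the cell cycle genes homology region (CHR). In a bulk culture, a smaller share of cells in G2 or mitosis and less transcript per such cell cannot be told apart.

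The promoters of 6 members that the results below return to are shown, each from 250 bases before to 50 bases after the gene's start, written 5′ to 3′ in the direction of the gene, from RefSeq for GRCh38.p14. CCNA2 (chr4:121823834-121824133, minus strand) and ASPM (chr1:197146620-197146919, minus strand) differed between the MSH3 and the MSH6 hairpins. HMMR (chr5:163460382-163460681, plus strand) and ESPL1 (chr12:53268049-53268348, plus strand) were lower with individual hairpins. CDC20 (chr1:43358731-43359030, plus strand) and CCNB1 (chr5:69166900-69167199, plus strand) separated replicate letter A from B and C. Capitals mark CCAAT, read as ATTGG where it lies on the opposite strand, and the CHR letters TTTGAA or TTCGAA, of which TTTGAA reads as TTCAAA on the opposite strand and TTCGAA is its own reverse complement. In HMMR the capitals CCAATTGG are 2 overlapping CCAAT boxes on opposite strands, and TTTGAATTTGAA holds the CHR letters in tandem.
CCNA2: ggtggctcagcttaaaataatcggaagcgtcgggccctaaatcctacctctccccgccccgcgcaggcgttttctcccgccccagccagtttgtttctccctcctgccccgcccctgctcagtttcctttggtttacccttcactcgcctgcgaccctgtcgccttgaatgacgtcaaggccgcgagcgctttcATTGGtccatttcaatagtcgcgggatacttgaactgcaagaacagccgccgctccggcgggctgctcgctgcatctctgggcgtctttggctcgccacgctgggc
ASPM: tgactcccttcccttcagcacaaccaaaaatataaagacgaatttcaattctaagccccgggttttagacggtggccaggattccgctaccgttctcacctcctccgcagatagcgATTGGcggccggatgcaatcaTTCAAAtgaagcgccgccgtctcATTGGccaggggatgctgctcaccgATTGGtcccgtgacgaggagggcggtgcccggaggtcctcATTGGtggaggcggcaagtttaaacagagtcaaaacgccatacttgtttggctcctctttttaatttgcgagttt
HMMR: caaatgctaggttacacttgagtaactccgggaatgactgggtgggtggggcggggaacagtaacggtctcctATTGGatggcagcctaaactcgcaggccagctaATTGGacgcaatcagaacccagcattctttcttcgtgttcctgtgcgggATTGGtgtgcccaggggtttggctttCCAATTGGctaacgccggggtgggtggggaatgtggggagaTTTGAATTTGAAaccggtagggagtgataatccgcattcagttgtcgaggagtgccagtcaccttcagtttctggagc
ESPL1: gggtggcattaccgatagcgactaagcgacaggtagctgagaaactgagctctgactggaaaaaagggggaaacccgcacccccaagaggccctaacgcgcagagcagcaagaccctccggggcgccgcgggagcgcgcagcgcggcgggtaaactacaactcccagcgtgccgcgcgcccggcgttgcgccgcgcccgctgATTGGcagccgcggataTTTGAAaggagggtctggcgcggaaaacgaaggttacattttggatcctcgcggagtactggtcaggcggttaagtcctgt
CDC20: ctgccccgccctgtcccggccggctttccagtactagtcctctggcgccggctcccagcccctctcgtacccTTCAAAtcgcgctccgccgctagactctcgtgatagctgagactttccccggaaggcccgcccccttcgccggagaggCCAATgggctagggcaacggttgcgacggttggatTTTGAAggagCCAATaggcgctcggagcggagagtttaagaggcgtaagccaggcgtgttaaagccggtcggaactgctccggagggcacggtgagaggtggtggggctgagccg
CCNB1: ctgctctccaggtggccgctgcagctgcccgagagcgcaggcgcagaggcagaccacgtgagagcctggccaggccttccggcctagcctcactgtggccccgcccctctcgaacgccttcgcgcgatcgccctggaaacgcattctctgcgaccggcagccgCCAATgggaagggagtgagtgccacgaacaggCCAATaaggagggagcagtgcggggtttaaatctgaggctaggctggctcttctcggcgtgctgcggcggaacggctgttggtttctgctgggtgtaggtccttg

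The CCAAT box of CCNA2 lies on the opposite strand with its first base at -56 from the start, and that window holds no exact CHR letters. CCNB1 has its boxes at -87 and -55 and no exact CHR letters either. CDC20 has boxes at -100 and -55 and the CHR letters at -178 and -65, while ASPM has 4 boxes, all on the opposite strand. RefSeq windows were matched for 35 of the 43 members, as 45 windows, and AURKA, BIRC5, BUB3, FOXM1, PBK, TPX2, TTK and UBE2C were not matched. CCAAT was found on either strand in 34 of the 45 windows (75.6%), against 34.6% of all 35116 promoter windows of the same length. The CHR letters were found on either strand in 30 of the 45 windows (66.7%), against 16.4% of all windows, and both motifs in 25 (55.6%), against 6.38%. The CCAAT boxes had a median position of -78 and the CHR letters one of -28.5. The CHR letters were in 38.5% of the windows of other kinetochore and passenger genes, 42.9% of condensin and cohesin genes, 36.4% of MuvB, B-MYB and DREAM genes, 21.4% of APC/C genes, 7.69% of G2 checkpoint genes and CDK inhibitors and 6.9% of E2F and G1/S genes. CCAAT was in 73.1%, 42.9%, 31.8%, 32.1%, 76.9% and 65.5% of the windows of these lists in the same order. These letters are a description and were not tested as binding sites.

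Array medians lay between 87.71 and 122.2 intensity units. Arrays with the letter A stood apart from B and C in KLE, as set out further on, so the hairpin results are given also from B and C alone. Of the 43 members, 41 lay above the array median in all 15 KLE arrays, MKI67 and UBE2C in 12 each. MSH6 was lower in the groups labelled for it, while the MSH3 result depended on the probe. The brightest MSH3 probe read 13.56, 13.83 and 13.87 with hairpin 059 and 13.48, 13.62 and 13.68 with hairpin 062. With shCTRL it read 13.47, 13.88 and 14.02, so its ranges overlapped. A dim MSH3 probe read 7.95, 7.94 and 7.92 with hairpin 059 and 7.76, 8.16 and 8.30 with hairpin 062, against 8.72, 8.80 and 8.65 with shCTRL. The differences were -0.79 (SE 0.13, adjusted p = 0.0236, limma) and -0.65 (SE 0.13, adjusted p = 0.0619), so hairpin 062 missed the threshold. MSH6 read 9.01, 8.41 and 8.65 with hairpin 543 and 10.18, 9.68 and 9.77 with hairpin 603, against 11.12, 10.55 and 10.74 with shCTRL, differences of -2.12 (adjusted p = 6.74e-05) and -0.93 (adjusted p = 0.0175). The MSH6 difference with 603 missed the threshold without shCTRL A, shCTRL C, 603 B or 603 C (adjusted p between 0.0584 and 0.0833), and both MSH6 differences did under scaling by the array median (adjusted p = 0.0972 with 543 and 0.292 with 603). Of the line markers, PAX8, SOX17 and EMX2 were high only in KLE and KRT5 and KRT14 only in MCF10A. The colorectal markers CDX1, CDH17, LGALS4 and VIL1 were near the array median in every line, HCT116 included.

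Across the cell lines, the members differed strongly and in both directions. In HCT116, 28 of the 43 members passed the test against KLE shCTRL (limma, Benjamini-Hochberg adjusted p below 0.05 over 14270 genes), 21 higher and 7 lower. Over all genes 54.4% passed, 29.3% higher and 25.1% lower. The median member difference was 0.37, against 0.03 for all genes. In MCF10A, 28 members also passed against KLE shCTRL, but 9 were higher and 19 lower, where 52.7% of all genes passed (27.0% higher and 25.7% lower), and the median member difference was -0.24, against 0.01 for all genes. Between HCT116 and MCF10A, 31 members passed, 28 of them higher in HCT116 and 3 lower, where 41.5% of all genes passed (22.6% higher and 18.9% lower), with a median member difference of 0.52, against 0.02 for all genes. The 2 comparisons with KLE share its shCTRL arrays. Scaling each array by its median in place of quantile normalization gave 20 higher and 3 lower members for HCT116 against KLE and 7 higher and 10 lower for MCF10A against KLE, and the values as deposited gave 17 and 2, and 7 and 6. Without the A array of KLE shCTRL, 34 and 29 members passed.

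UBE2C, the ubiquitin-conjugating enzyme of the APC/C, showed the widest range of the set. It read 11.57, 11.87 and 11.27 in HCT116 and 10.42, 10.16 and 10.84 in MCF10A, against 6.94, 7.01 and 7.07 in KLE shCTRL. The KLE values lay close to the median of each array (6.917), and over all 15 KLE arrays UBE2C stayed between 6.84 and 7.14. The groups did not overlap, and the differences from KLE of 4.56 (SE 0.18, adjusted p = 5.46e-08) and 3.46 (SE 0.18, adjusted p = 3.09e-07) are differences of this probe's signal only, since it was not tested whether its signal in KLE lies above background. Another UBE2C probe, ILMN_2265654, gave 0.67 for HCT116 (SE 0.08) and 0.17 for MCF10A (SE 0.08, unadjusted p = 0.0746, limma) against KLE, so the size depends on the probe and the MCF10A difference rests on the brighter one. PRC1, which bundles antiparallel microtubules of the central spindle, read 11.38, 11.25 and 11.55 in HCT116 and 10.70, 10.69 and 10.39 in MCF10A, against 9.86, 9.37 and 9.37 in KLE shCTRL. It rose by 1.86 in HCT116 (SE 0.15, 3.63-fold, adjusted p = 5.06e-06) and by 1.06 in MCF10A (adjusted p = 0.000229), with no overlap between the lines.

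**Figure D1:**
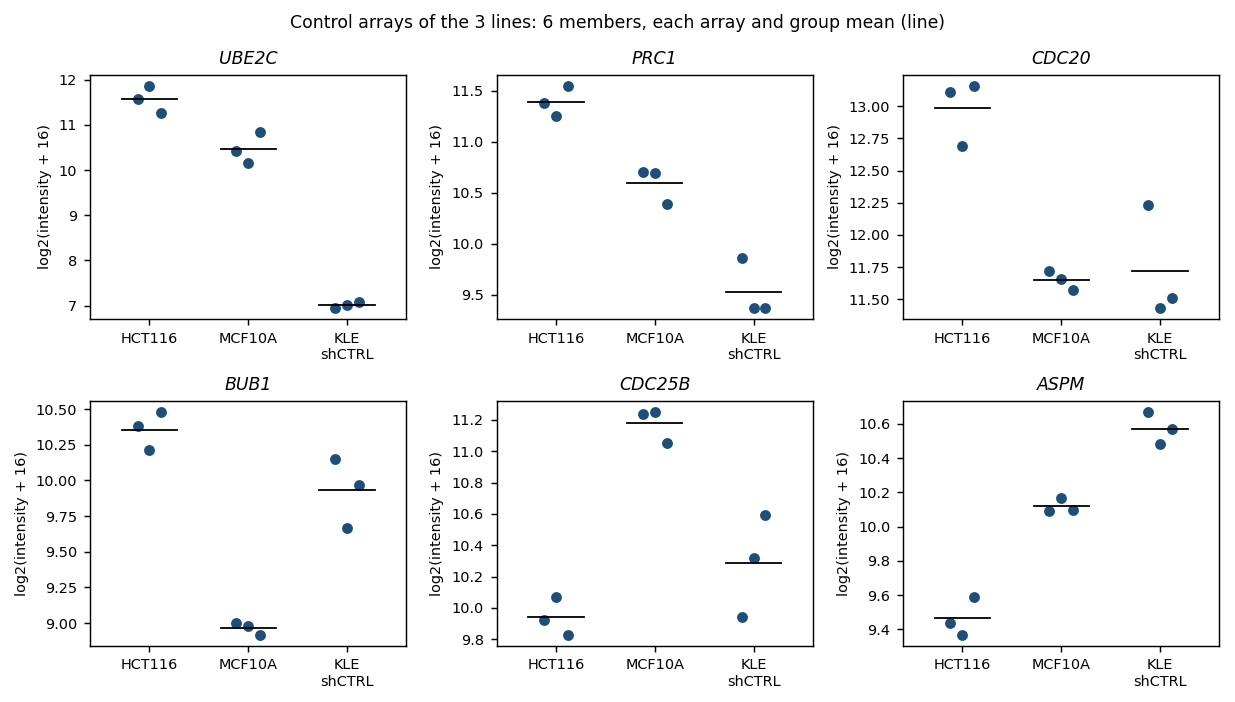
Each dot is 1 array of HCT116, MCF10A or KLE shCTRL and each line a group mean, on the vertical axis as log2(intensity + 16), for 6 members. UBE2C lies near 7 in KLE and above 10 in the other lines, ASPM is lowest in HCT116, CDC25B highest in MCF10A and BUB1 lowest in MCF10A.

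Of the 6 cyclins, CDK1 and CDC25 phosphatases, 3 rose and 1 fell in HCT116 against KLE, and 2 rose and none fell in MCF10A. Over all genes 54.4% and 52.7% passed in these comparisons. Counts by role, here and below, are a description and were not tested against these shares. CDK1 itself read 11.45, 11.19 and 11.32 in HCT116 and 10.65, 10.60 and 10.64 in MCF10A, against 10.40, 9.63 and 9.81 in KLE shCTRL, where the A array was the highest. It rose by 1.37 (adjusted p = 9.57e-05) and 0.68 (adjusted p = 0.00716). Another CDK1 probe gave 1.17 and 0.27, so the size of the rise in MCF10A depends on the probe. CCNA2, which encodes cyclin A2, rose by 0.86 in HCT116 against KLE (adjusted p = 0.000529) and by 1.15 against MCF10A (adjusted p = 0.000116), and differed by -0.29 between MCF10A and KLE (adjusted p = 0.107). CCNB1, encoding cyclin B1, rose by 0.67 in HCT116 against KLE (adjusted p = 0.00203) and by 0.50 against MCF10A (adjusted p = 0.0136). The phosphatase CDC25B went the other way: it read 9.92, 10.07 and 9.83 in HCT116 and 11.24, 11.25 and 11.05 in MCF10A, against 9.94, 10.32 and 10.59 in KLE shCTRL. HCT116 lay below MCF10A without overlap (-1.24, SE 0.15, adjusted p = 0.000108) and MCF10A above KLE (0.90, adjusted p = 0.000658), while HCT116 and KLE overlapped (-0.34, adjusted p = 0.0765). CDC25C fell in HCT116 against KLE by 0.20 (adjusted p = 0.0155) and against MCF10A by 0.18 (adjusted p = 0.032).

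Of the 8 mitotic kinases, 7 rose and none fell in HCT116 against KLE (median 0.61), and 3 rose and 2 fell in MCF10A against KLE. In HCT116 against MCF10A, 6 rose and none fell (median 0.67). The shares of all genes that passed were 54.4%, 52.7% and 41.5% in the same order. PBK, a kinase active in mitosis, rose by 1.46 in HCT116 (adjusted p = 3.73e-06) and 0.90 in MCF10A (adjusted p = 0.000105) against KLE. AURKB, the kinase of the chromosomal passenger complex, read 9.66, 9.44 and 9.37 in HCT116 and 8.33, 8.46 and 8.72 in MCF10A, against 7.86, 8.35 and 8.49 in KLE shCTRL. HCT116 lay above both other lines (1.25, adjusted p = 0.000152, against KLE), and MCF10A overlapped KLE (0.27, adjusted p = 0.206). PLK1, which acts at centrosomes and kinetochores, rose by 1.03 in HCT116 (adjusted p = 0.000684) and by 0.57 in MCF10A (adjusted p = 0.0196) against KLE and differed by 0.46 between HCT116 and MCF10A (adjusted p = 0.0573). AURKA, the spindle pole kinase, rose by 0.37 in HCT116 against KLE (adjusted p = 0.0382).

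The checkpoint kinase BUB1 separated HCT116 and MCF10A most clearly among the kinases. It read 10.38, 10.21 and 10.48 in HCT116 and 9.0, 8.98 and 8.92 in MCF10A, against 10.15, 9.67 and 9.97 in KLE shCTRL. It rose in HCT116 by 1.39 against MCF10A (SE 0.12, adjusted p = 1.27e-05) and by 0.42 against KLE (adjusted p = 0.0126), and fell in MCF10A by 0.96 against KLE (adjusted p = 0.000103).

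Among the 6 genes of the checkpoint, the APC/C and separase, 3 rose and none fell in HCT116 against KLE, where 54.4% of all genes passed. In MCF10A against KLE, 2 rose and 2 fell (52.7% of all genes). In HCT116 against MCF10A, 5 rose and none fell (41.5% of all genes). CDC20, the APC/C activator of mitosis, read 13.11, 12.69 and 13.16 in HCT116 and 11.72, 11.66 and 11.57 in MCF10A, against 12.23, 11.43 and 11.51 in KLE shCTRL. It rose in HCT116 by 1.26 against KLE (SE 0.20, adjusted p = 0.000568) and by 1.34 against MCF10A (adjusted p = 0.00056), and MCF10A lay inside the KLE range. BUB3 rose in both lines against KLE, by 1.09 in HCT116 (adjusted p = 3.25e-05) and 0.74 in MCF10A (adjusted p = 0.00045). Its probes disagreed, since ILMN_2386100 gave 1.81 and ILMN_1778764 gave 0.00 for HCT116 against KLE. For MCF10A against KLE these probes gave 0.87 and -0.08, and ILMN_2245180 gave 0.22, so the size of both rises depends on the probe. MAD2L1, the checkpoint protein that binds CDC20, fell by 0.81 in MCF10A against KLE (adjusted p = 0.000746) and differed by 0.03 between HCT116 and KLE (adjusted p = 0.879).

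The 7 kinetochore and passenger complex genes split by line: 3 rose and 2 fell in HCT116 against KLE (54.4% of all genes passed). In MCF10A against KLE, none rose and 5 fell (median -0.43, 52.7% of all genes). In HCT116 against MCF10A, 5 rose and none fell (41.5% of all genes). CDCA8, which encodes the passenger subunit borealin, read 9.33, 9.35 and 9.52 in HCT116 and 8.08, 8.01 and 8.11 in MCF10A, against 9.23, 9.67 and 9.63 in KLE shCTRL. MCF10A was low without overlap (-1.45 against KLE, SE 0.11, adjusted p = 5.07e-06), while HCT116 and KLE overlapped. NDC80, which links kinetochores to microtubules, rose by 1.18 in HCT116 against MCF10A (adjusted p = 2.16e-06). CENPF, a kinetochore protein, fell by 0.57 in HCT116 (adjusted p = 0.00205) and 0.71 in MCF10A (adjusted p = 0.000571) against KLE. The kinetochore motor CENPE fell by 0.28 (adjusted p = 0.0267) and 0.43 (adjusted p = 0.00295), but its other probe gave 0.11 and 0.03.

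Of the 11 spindle motors and microtubule proteins, 4 rose and 2 fell in HCT116 against KLE, where 54.4% of all genes passed. In MCF10A against KLE, 2 rose and 7 fell (median -0.45), where 52.7% of all genes passed. ASPM, a spindle pole protein, read 9.44, 9.37 and 9.59 in HCT116 and 10.09, 10.17 and 10.10 in MCF10A, against 10.67, 10.48 and 10.57 in KLE shCTRL. The lines did not overlap, and ASPM fell in HCT116 by 1.11 against KLE (SE 0.07, adjusted p = 1.86e-06) and by 0.65 against MCF10A (adjusted p = 8.74e-05), so it ran against the majority of the members. TPX2, the spindle assembly factor that activates AURKA, fell by 1.07 in MCF10A against KLE (SE 0.23, adjusted p = 0.00297) and differed by -0.52 between HCT116 and KLE (adjusted p = 0.0775). The chromokinesin KIF4A fell in both, by 0.53 in HCT116 (adjusted p = 0.0147) and 1.14 in MCF10A (adjusted p = 0.00019).

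Probes of DLGAP5, a microtubule-binding spindle protein, gave 0.17 (adjusted p = 0.442) and, for ILMN_3239771, -0.54 in HCT116 against KLE. Those of HMMR, a spindle-associated hyaluronan receptor, gave -0.09 (adjusted p = 0.476) and 0.37. Those of KIF23 and NUF2 gave -0.33 and -0.25 in MCF10A against KLE, where other probes gave 0.00 and 0.05. Members of opposite sign between probes with neither value passing were FOXM1 in HCT116 against KLE and BIRC5 and CDC25C in MCF10A against KLE.

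TOP2A, the topoisomerase that untangles mitotic chromosomes, and ANLN, an actin-binding protein of the cleavage furrow, were lower than KLE in both lines. TOP2A read 10.47, 10.35 and 10.53 in HCT116 and 10.57, 10.57 and 10.42 in MCF10A, against 11.29, 11.44 and 11.57 in KLE shCTRL. It fell by 0.98 (SE 0.09, adjusted p = 1.04e-05) and 0.92 (adjusted p = 1.68e-05), and HCT116 and MCF10A overlapped (-0.07, adjusted p = 0.611). ANLN fell by 0.62 (adjusted p = 0.000634) and 0.92 (adjusted p = 5.29e-05). The proliferation marker MKI67 had 0.01 in HCT116 against KLE (adjusted p = 0.952) and fell by 0.18 in MCF10A (adjusted p = 0.0403), at levels of 7.15 or less in all 9 arrays. FOXM1, a transcription factor that activates many of these genes, differed by 0.10 (adjusted p = 0.714) and -0.42 (adjusted p = 0.117) from KLE, where its A array read 7.71 against 8.62 and 8.53 in B and C. Without that A array, the FOXM1 difference of MCF10A passed (-0.71, adjusted p = 4.4e-05).

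**Figure D2:**
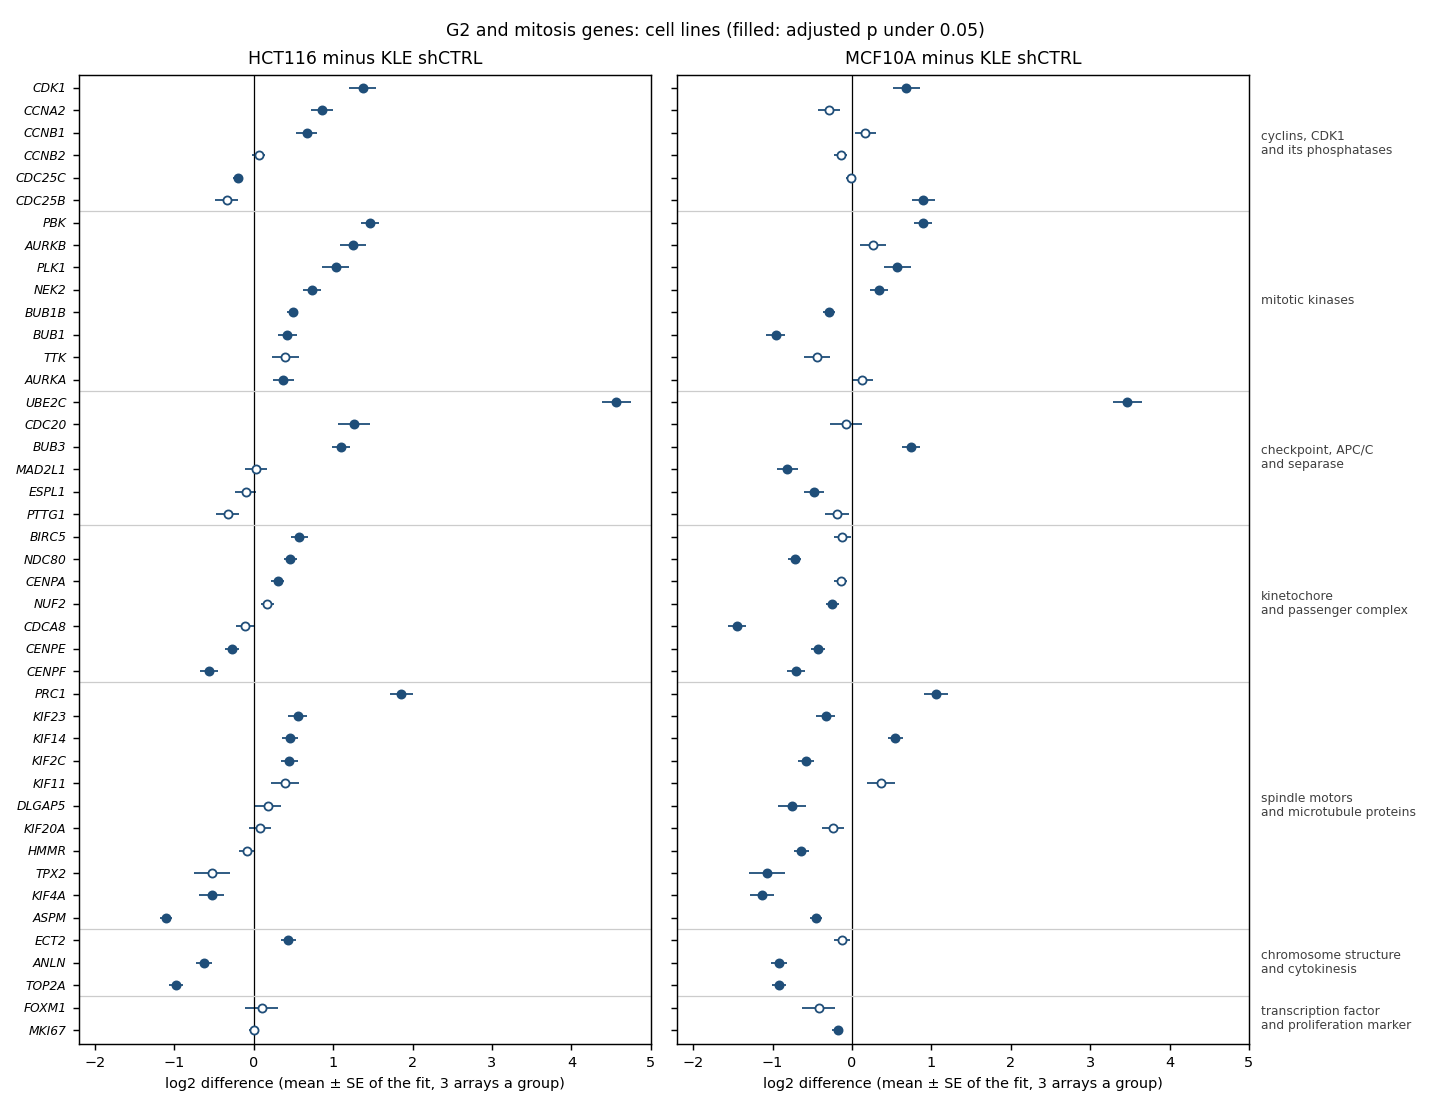
Log2 difference (horizontal axis) of each of the 43 members between HCT116 and KLE shCTRL on the left and between MCF10A and KLE shCTRL on the right, by role, with bars of 1 SE from the fit and filled points where the adjusted p was below 0.05. UBE2C and PRC1 are high in both panels, ASPM, TOP2A and ANLN low in both, and 5 members (BUB1, BUB1B, KIF23, KIF2C and NDC80) pass with opposite signs.

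Some of these calls were lost under scaling by the array median. In HCT116 against KLE, CENPF (-0.37, adjusted p = 0.272), ANLN (-0.41, adjusted p = 0.0977) and BUB1 (0.66, adjusted p = 0.0584) did not pass there. In MCF10A against KLE, CDK1 (0.77, adjusted p = 0.0685), PLK1 (0.57, adjusted p = 0.0974) and MKI67 (-0.19, adjusted p = 0.0601) did not pass, while AURKB did (0.38, adjusted p = 0.0172). Between HCT116 and MCF10A, ASPM (-0.55, adjusted p = 0.055), CCNB1 (0.63, adjusted p = 0.0918) and CDC25C (-0.20, adjusted p = 0.282) did not pass. As deposited, KIF4A in HCT116 (-0.39, adjusted p = 0.101) and BUB1 in MCF10A (-0.80, adjusted p = 0.0698) against KLE also missed the threshold. AURKA in HCT116 against KLE missed it with no filter on dim probes and with only those groups fitted (adjusted p = 0.0518 and 0.069). With the replicate fitted as a block it also missed (adjusted p = 0.0702). MKI67 missed with the block against KLE in MCF10A (adjusted p = 0.0649) and between HCT116 and MCF10A (adjusted p = 0.072). PLK1 passed with the block between HCT116 and MCF10A (adjusted p = 0.0349). With only those groups fitted, MKI67 in MCF10A against KLE missed (adjusted p = 0.0778).

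Judged by the brightest probe of each gene, members that passed against KLE in both lines fell into 3 patterns. BUB3, CDK1, KIF14, NEK2, PBK, PLK1, PRC1 and UBE2C were higher in both (8 members), ANLN, ASPM, CENPE, CENPF, KIF4A and TOP2A were lower in both (6 members), and BUB1, BUB1B, KIF23, KIF2C and NDC80 were higher in HCT116 and lower in MCF10A (5 members). No member was lower in HCT116 and higher in MCF10A at that threshold. Because both comparisons use the same KLE arrays, these counts are given as a description. Of all genes, 54.4% passed in HCT116 and 52.7% in MCF10A against KLE. The share of all genes in each pattern was not counted, so these counts cannot be read against a background.

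Neighbouring gene lists were counted in the same fits. Of all genes, 54.4% passed in HCT116 against KLE, 52.7% in MCF10A against KLE and 41.5% between HCT116 and MCF10A. Counts near or below these shares do not set a list apart. Of 24 E2F and G1/S genes, 17 rose and 1 fell in HCT116 against KLE (median 0.76), led by CDT1 (2.67) and RRM2 (2.16), and 20 rose and none fell against MCF10A. In MCF10A against KLE, 7 rose and 5 fell, with CCNE1, which encodes cyclin E1, at -1.70. Of 26 other kinetochore and passenger genes, 10 rose and 6 fell in HCT116 against KLE, 4 rose and 14 fell in MCF10A against KLE (median -0.29), with CENPW at -1.52, and 16 rose and 1 fell in HCT116 against MCF10A. Of 15 condensin and cohesin genes, 10 rose and 4 fell in HCT116 and 6 rose and 5 fell in MCF10A, against KLE. Of 15 APC/C genes, 6 rose and none fell in HCT116, and 3 rose and 2 fell in MCF10A. Of 14 G2 checkpoint genes and CDK inhibitors, 7 rose and 3 fell in HCT116 and 5 rose and 4 fell in MCF10A. CDKN1A, the CDK inhibitor p21, rose by 2.97 in HCT116 and 3.91 in MCF10A against KLE, and SFN by 2.52 and 3.22. Of 13 genes of MuvB, B-MYB and DREAM, 4 rose and 2 fell in HCT116 and 3 rose and 3 fell in MCF10A.

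Within KLE, the differences between hairpins were small beside those between lines. With no replicate block, 0 of the 43 members passed against shCTRL (limma, over 14872 genes) with hairpin 059, 062, 543 or 603. At an unadjusted p below 0.05 the counts were 6, 2, 1 and 2. The shares of all genes that passed were 0.397%, 0.343%, 0.323% and 2.17%. The median member difference was -0.14 with hairpin 059, -0.08 with 062, 0.06 with 543 and -0.06 with 603, and all-gene medians lay within 0.01 of 0. Below 0 were 37, 30, 14 and 24 of the 43 members, and these comparisons share the shCTRL arrays. Scaling by the array median turned these medians to -0.43, -0.20, -0.06 and -0.30, with all-gene medians of -0.13, -0.04, -0.04 and -0.08, so the sign with hairpin 543 depends on the scaling.

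The same comparisons were fitted with the replicate letter as a block, since arrays of the same letter deviated together in every pair. Arrays B and C deviated together as much (median r 0.53), so the letters separate A from B and C but not B from C. The shares of all genes passing then became 1.45%, 1.30%, 1.06% and 6.84%, and 2, 2, 0 and 4 members passed, hairpin 543 having 5 members at an unadjusted p below 0.05. ESPL1, which encodes separase, the protease that opens cohesin, read 7.12, 7.45 and 7.32 with hairpin 059 and 7.09, 7.30 and 7.40 with hairpin 062, against 7.42, 8.01 and 7.71 with shCTRL, in the order A, B, C. The ranges overlapped between groups, but each letter was lower with either MSH3 hairpin than with shCTRL. ESPL1 fell by 0.41 (SE 0.08, adjusted p = 0.0372 with the block and 0.401 without) and by 0.45 (adjusted p = 0.0268 with the block and 0.307 without). It was the 1 member that passed with both MSH3 hairpins, at a mean of -0.43 (SE 0.07), where 0.343% of all genes did so. With the MSH6 hairpins it differed by -0.18 and -0.27, which did not pass.

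HMMR, the spindle-associated receptor, read 9.64, 10.21 and 10.13 with hairpin 059, 10.43, 10.35 and 10.47 with 062, 10.23, 10.42 and 10.39 with 543 and 9.85, 10.28 and 10.12 with 603, against 10.56, 10.69 and 10.67 with shCTRL. On this probe, every array of every targeting hairpin was below every shCTRL array, and all hairpins share those shCTRL arrays. HMMR fell by 0.64 with hairpin 059 (SE 0.10, 0.640-fold, adjusted p = 0.0101 with the block and 0.0965 without) and by 0.56 with hairpin 603 (adjusted p = 0.00665 with the block and 0.0655 without). With 062 and 543 it differed by -0.22 and -0.29 and did not pass. Another HMMR probe gave -0.50 with 059 and -0.49 with 603. The members that passed therefore included HMMR with 1 hairpin against each target.

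**Figure D3:**
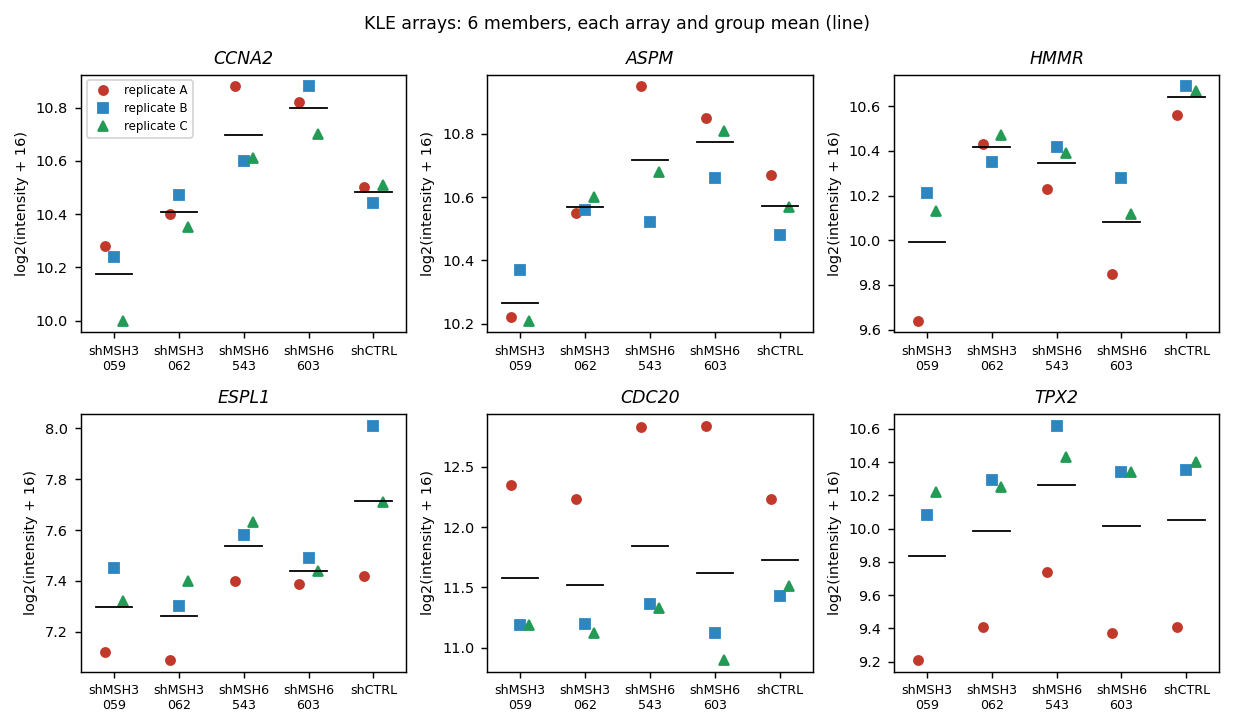
Each symbol is 1 KLE array, with the replicate letter by colour and shape, and each line a group mean, on the vertical axis as log2(intensity + 16). HMMR, by its brightest probe, lies below shCTRL in all 12 targeting arrays. CCNA2 is lower with the MSH3 than with the MSH6 hairpins, and the A arrays of CDC20 and TPX2 lie apart in every group.

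The other members that passed with the block did so with 1 hairpin each. CENPF fell by 0.36 with hairpin 062 (adjusted p = 0.0472). With hairpin 603, PBK rose by 0.33 (adjusted p = 0.0148), CCNA2 rose by 0.31 (adjusted p = 0.0318) and CCNB1 fell by 0.29 (adjusted p = 0.0384). PBK read 9.63, 9.16 and 9.12 with hairpin 603, against 9.15, 8.78 and 8.99 with shCTRL, so each letter was higher but the ranges overlapped. Between the MSH6 hairpins, PBK was higher with 603 than with 543 by 0.37 (adjusted p = 0.012 with the block, the 1 member of 43 where 3.64% of all genes passed), and without the block 0 members passed (1 at an unadjusted p below 0.05, 1.18% of all genes). Between the MSH3 hairpins, 062 against 059, 0 members passed under either fit, with 3 and 6 at an unadjusted p below 0.05, where 0.141% and 1.51% of all genes passed. The median of 062 against 059 was 0.10, with 32 of 43 members higher. With both MSH6 hairpins, 0 members passed in either fit (2 and 6 at an unadjusted p below 0.05 and 0.182% and 0.652% of all genes).

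**Figure D4:**
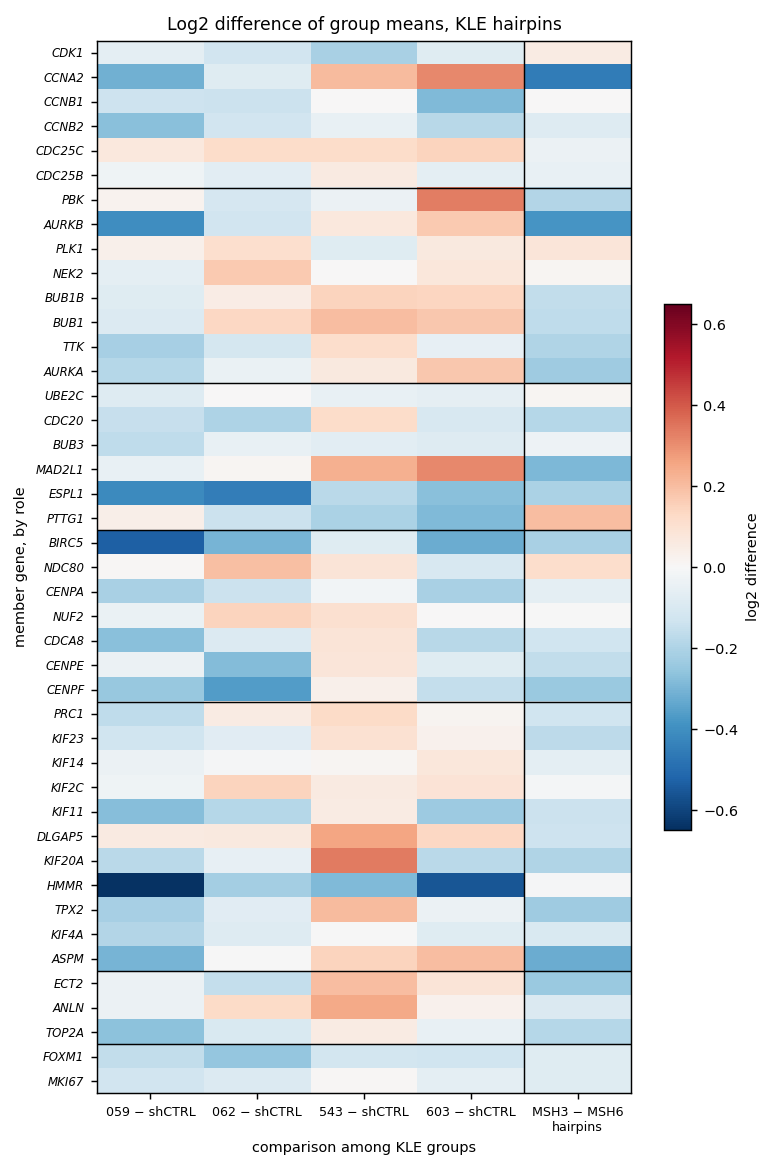
Log2 difference of group means (colour) for each member, by role (vertical axis), for 4 hairpins against shCTRL and for the MSH3 against the MSH6 hairpins (horizontal axis). HMMR and ESPL1 are below 0 with all 4 hairpins, and CCNA2 is below 0 with the MSH3 and above 0 with the MSH6 hairpins.

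The MSH3 and the MSH6 hairpins were also set against each other, in the fit of all 15 KLE arrays. The shCTRL arrays do not enter the difference itself but enter the estimate of spread. CCNA2, the cyclin of S phase and G2, read 10.28, 10.24 and 10 with hairpin 059 and 10.40, 10.47 and 10.35 with 062, against 10.88, 10.60 and 10.61 with 543 and 10.82, 10.88 and 10.70 with 603. The 6 arrays of the MSH3 hairpins all lay below the 6 of the MSH6 hairpins, and shCTRL at 10.50, 10.44 and 10.51 lay between their means. CCNA2 was lower with the MSH3 hairpins by 0.46 on the log2 scale (difference -0.46, SE 0.06, 0.729-fold, adjusted p = 0.00408, or 0.000699 with the block). Within letters the difference was -0.51 in A, -0.39 in B and -0.48 in C.

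ASPM read 10.22, 10.37 and 10.21 with hairpin 059 and 10.55, 10.56 and 10.60 with 062, against 10.95, 10.52 and 10.68 with 543 and 10.85, 10.66 and 10.81 with 603. The 059 arrays were the lowest, and 062 overlapped 543. The difference of the MSH3 from the MSH6 hairpins was -0.33 (SE 0.07, adjusted p = 0.0329, or 0.01 with the block). These were 2 of the 43 members, both lower, where 2.08% of all genes passed, 0.948% lower. The median member difference was -0.13 with 36 of 43 below 0, against -0.01 for all genes. Under scaling by the array median and with the values as deposited, neither gene passed (CCNA2 at -0.49 and -0.50), where 0.229% and 0.0538% of all genes passed.

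The 4 pairs of an MSH3 with an MSH6 hairpin differed in size. For CCNA2, 059 differed from 543 by -0.52 (adjusted p = 0.0406) and from 603 by -0.63 (adjusted p = 0.00666), and 062 differed from 603 by -0.39 (adjusted p = 0.0372) and from 543 by -0.29 (adjusted p = 0.233). For ASPM, 059 differed from 603 by -0.50 (adjusted p = 0.0291), and the other pairs did not pass without the block, with -0.45 for 059 and -0.15 for 062 against 543 and -0.20 for 062 against 603. The ASPM difference missed the threshold when any of 8 of the 15 arrays was left out (adjusted p between 0.0564 and 0.0944), namely shCTRL C, 059 A, 059 C, 062 B, 062 C, 543 C, 603 A and 603 C. CCNA2 passed without each of the 15.

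With the letter as a block, 8 members passed between the MSH3 and MSH6 hairpins, all lower with MSH3, where 8.90% of all genes passed, 4.86% lower. Beside CCNA2 and ASPM these were the kinases AURKB (-0.38, adjusted p = 0.0136), AURKA (-0.23, adjusted p = 0.0287) and PBK (-0.19, adjusted p = 0.0355), the AURKA activator TPX2 (-0.23, adjusted p = 0.0137), CENPF (-0.24, adjusted p = 0.0191) and ECT2 (-0.24, adjusted p = 0.026), an exchange factor needed for cytokinesis. Another AURKA probe gave -0.07 for this difference. AURKB read 7.80, 7.99 and 7.71 with hairpin 059 and 7.88, 8.34 and 8.11 with 062, against 7.94, 8.44 and 8.53 with 543 and 8.17, 8.62 and 8.43 with 603. Each letter was lower with either MSH3 hairpin than with either MSH6 hairpin, although the ranges overlapped.

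In the neighbouring lists, no gene of the 6 passed with a single hairpin against shCTRL without the block. With the block, RPRM (-0.61), GTSE1 (-0.39), E2F4 (-0.34) and CDCA5 (-0.47) fell with hairpin 059, and RPRM (-0.63) and E2F4 (-0.55) fell with 062. With 603, CDK2 fell (-0.36) and RFC4 (0.25) and WAPL (0.28) rose, and with 543 no gene passed. The shares of all genes passing with the block were 1.45%, 1.30%, 1.06% and 6.84% with 059, 062, 543 and 603. Between the MSH3 and the MSH6 hairpins, 2.08% of all genes passed without the block and 8.90% with it. Without the block, 2 of 23 E2F and G1/S genes fell there, RRM2 (-0.41) and MCM3 (-0.32). They encode a ribonucleotide reductase subunit and a replicative helicase subunit. A change of 1 gene each was seen for CDC23 of 16 APC/C genes (-0.23), NCAPG of 16 condensin and cohesin genes (-0.30) and RPRM of 14 G2 checkpoint genes and CDK inhibitors (-0.70). Of 26 other kinetochore and passenger genes, CENPH rose (0.28) and INCENP fell (-0.21), and none of 13 MuvB, B-MYB and DREAM genes passed. With the block, the genes that passed beside these were ANAPC1 (-0.33) and FBXO5 (-0.30) of the APC/C list, E2F2 (-0.36) of the E2F and G1/S list, CDCA5 (-0.41) of the condensin and cohesin list, and E2F4 (-0.31) and RBL2 (0.30) of the MuvB, B-MYB and DREAM list.

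With letters B and C alone, a setting added after the data were seen, 9, 10, 2 and 10 members passed against shCTRL with hairpins 059, 062, 543 and 603, where 11.5%, 16.3%, 5.07% and 16.4% of all genes passed. BIRC5, which encodes survivin of the passenger complex, read 8.73 and 8.72 with 059, 9.22 and 9.23 with 062, 9.23 and 9.21 with 543 and 8.87 and 8.96 with 603, against 9.53 and 9.45 with shCTRL. It fell with all 4 hairpins, by 0.77, 0.27, 0.27 and 0.57, each measured against the same shCTRL arrays. In the A arrays BIRC5 read 9.41, 9.10, 9.76 and 9.65, against 9.46 with shCTRL, so 2 of 4 hairpins were higher there. MAD2L1 rose in B and C with all 4, by 0.23, 0.25, 0.34 and 0.60, again against the same shCTRL arrays. In A it read 11.13, 11.27, 11.75 and 11.48, against 11.73 with shCTRL, so the A arrays did not share that direction except with 543. CDC20, ESPL1 and HMMR each fell in B and C with 059, 062 and 603. Between the MSH3 and MSH6 hairpins 8 members passed in B and C (16.4% of all genes), CCNA2 (-0.43) and ASPM (-0.23) among them. In these arrays 5 members passed with both MSH3 hairpins and 2 with both MSH6 hairpins, where 5.02% and 3.30% of all genes did. Hairpin 603 differed from 543 in 6 members, where 8.06% of all genes passed, and 062 differed from 059 in 7, where 13.0% of all genes passed.

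The KLE arrays were also compared by replicate letter. With the 5 groups as terms, 24 of 43 members differed by letter (moderated F, adjusted p below 0.05), where 33.2% of all genes did. In A, 14 members were above both B and C and 7 below both, where 17.7% and 12.5% of all genes were, and B and C differed in 0 members (limma, 2 at an unadjusted p below 0.05). CDC20 read 12.35, 12.23, 12.83, 12.84 and 12.23 in the A arrays of 059, 062, 543, 603 and shCTRL, against 11.19, 11.20, 11.36, 11.12 and 11.43 in B and 11.19, 11.12, 11.33, 10.90 and 11.51 in C. All 5 A arrays were above all 10 others, by 1.24 against B (SE 0.13, adjusted p = 2.38e-05) and 1.29 against C. TPX2 ran the opposite way, with 9.21 to 9.74 in A, against 10.08 to 10.62 in B and 10.22 to 10.43 in C, differences of -0.91 (SE 0.05, adjusted p = 2.65e-07) and -0.90. CDC20 thus spanned 1.94 over the 15 KLE arrays and TPX2 1.41, where the median member spanned 0.77 and MKI67 the least at 0.29.

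Higher in A were also PLK1 (0.59 against B), CCNB1 (0.53), KIF2C (0.48), CDK1 (0.45), TTK, PBK, KIF11, ECT2, CENPF, PRC1, NEK2, CENPE and BIRC5. Lower in A beside TPX2 were FOXM1 (-0.68), KIF4A (-0.55), AURKB (-0.42), TOP2A, ANLN and ESPL1. Mean array intensity was 310.5 to 485 in the A arrays and 232.5 to 392.2 in B and C, and the part of overall brightness in these differences was not tested. Scaling by the array median put 28 members in A above both letters and 0 below both, with a member median of 0.55 against B and an all-gene median of 0.11, and the values as deposited gave 29 and 0. TPX2 (-0.42 against B) and FOXM1 (-0.36) kept their sign under median scaling, and TOP2A (0.08) and ANLN (0.20) did not. CDC20 remained the highest, at 1.52. The labels do not say what the letters stand for beyond replicates, so a difference of culture, extraction or hybridisation cannot be told apart.

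**Figure D5:**
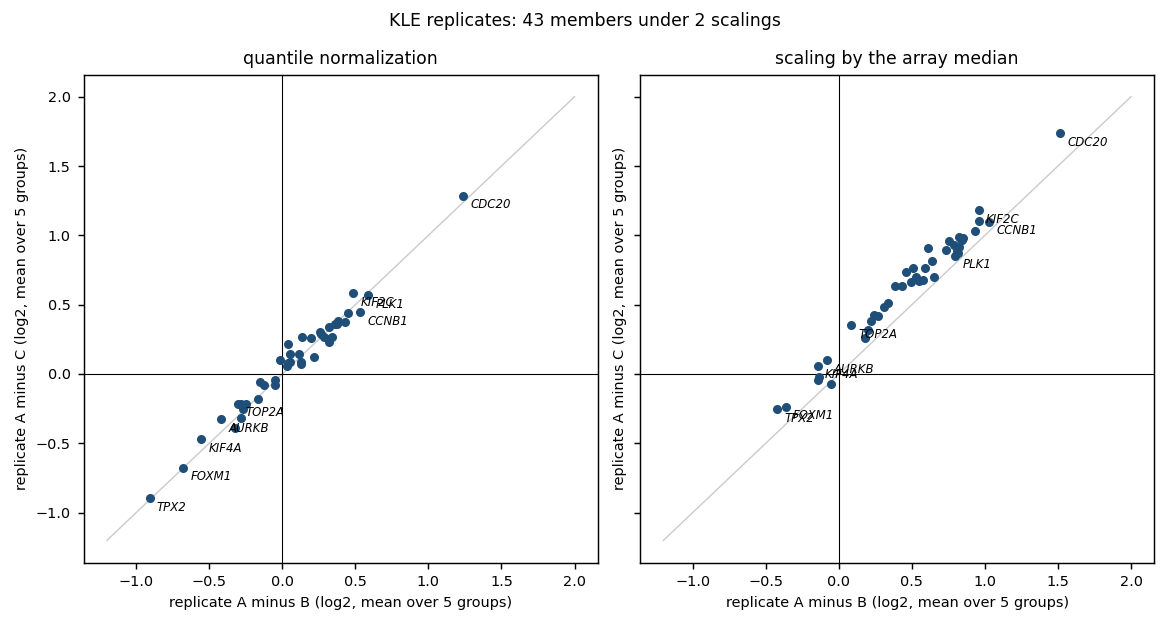
For each of the 43 members, the log2 difference of the KLE arrays A minus B (horizontal axis) and A minus C (vertical axis), as means over 5 groups, with quantile normalization on the left and scaling by the array median on the right. Points lie along the diagonal in both, from TPX2 at -0.91 to CDC20 at 1.24 on the left, and most shift above 0 on the right.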

How the data were processed

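Illumina arrays were hybridised with total RNA of 21 cultured samples. The authors deposited linear intensity values, which came from GenomeStudio per the submitters' processing notes and showed no normalization between arrays. No detection p-values entered these tests. All 21 columns were used and 0 were left out. Groups came from the sample labels, whose titles spell HCT116 as HCCT116. Precision is limited by the number of arrays.

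After adding 16 and taking log2, the 21 arrays were quantile-normalized. The filter asked that a probe exceed its array's median in 3 or more arrays of the fit, and the brightest probe stood for its gene. Groups were compared with limma 3.58.1 in R 4.3.3 (lmFit and eBayes, two-sided), with Benjamini-Hochberg adjustment over all genes and a threshold of 0.05, in 1 fit of the 15 KLE arrays (14872 genes) and 1 of the 9 control arrays (14270 genes). The code was tested on simulated data. All 43 members passed the filter in both fits. A gene passed with both hairpins when each passed with the same sign.

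The members and all lists were chosen with earlier results of these data known. Named were all members that passed if 10 or fewer, otherwise the 5 largest rises and falls. Also named were 10 fixed members, members whose probes disagree in sign between a line and KLE, and at most 3 genes per other list. Probes that disagree in sign in the other comparisons were not all listed. For example, PTTG1 probes gave -0.14 and 0.15 with hairpin 062 against shCTRL. BUB3 probes gave 0.35 and -0.09 for HCT116 against MCF10A. Same-letter KLE arrays deviated together (median r of residuals 0.69, 0.53 and 0.57 for A, B and C, lowest 0.40), so the letter was also fitted as a block, although B with C arrays deviated together as much (median r 0.53). HCT116 and MCF10A share only numbers (median r 0.05, -0.22 and -0.28). Probe names come from the platform annotation, which can be old. Promoter windows come from RefSeq tables of GRCh38.p14. Other lines that the series design counts, and the genes KRT17, TP63, HOXA10 and PDS5A, were not analysed here. Alternatives tried were other scalings, background correction, filter, pseudocount, probe summaries, the letter as a block, fits of the compared groups only, and leaving out each array.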

Additional observations from a re-analysis of the deposited data

Results flagged for a closer look

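Members were singled out where the effects of the MSH3 and the MSH6 hairpins, measured against the same control, differed by a test of the difference. Without the letter as a block these were CCNA2, at -0.456 for the MSH3 minus the MSH6 hairpins (SE 0.06, adjusted p = 0.00408, limma), and ASPM, at -0.325 (adjusted p = 0.0329). With the letter as a block the same values held for CCNA2 (-0.456) and ASPM (-0.325), and 6 further members passed: AURKA at -0.233, AURKB at -0.383, CENPF at -0.243, ECT2 at -0.239, PBK at -0.19 and TPX2 at -0.231. For AURKA another probe gave -0.07. CCNA2 was lower in all 6 arrays of the MSH3 hairpins than in any of the 6 arrays of the MSH6 hairpins. For PBK the 2 MSH6 hairpins themselves differed, by 0.372 for 603 minus 543 with the block (SE 0.07, adjusted p = 0.012), so its difference between targets is not the same for each hairpin.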

How the results depend on the processing

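The number of arrays limits these comparisons, and no measure of detection above background was used. Scaling by the array median left 0 members passing between the MSH3 and MSH6 hairpins and 17 for MCF10A against KLE. It moved the member medians to -0.43, -0.20, -0.06 and -0.30 with hairpins 059, 062, 543 and 603, -0.33 and -0.13 over both MSH3 and both MSH6 hairpins, -0.26 for 603 against 543, 0.27 for 062 against 059, 0.60 for HCT116 against KLE and 0.64 for HCT116 against MCF10A. The values as deposited left 0, 13 and, for HCT116 against MCF10A, 17 members. Their medians were -0.60, -0.26, -0.12, -0.43, -0.45, -0.23, -0.33 and 0.40 in that order, then 0.67, -0.11 for MCF10A against KLE, and 0.66. The cause was not tested. Hairpin 059 had an all-gene median of -0.29 as deposited, which accompanies its member median. The mean of probes let 1 member pass with 059 and 1 with 603, HMMR in both, and fitting only the compared groups left 1 between MSH3 and MSH6.

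With the letter as a replicate block, members that passed numbered 2 with 059, 2 with 062, 4 with 603, 1 with both MSH3 hairpins, 8 between MSH3 and MSH6 and 1 between 603 and 543. The block changed no other hairpin count and moved no count of the lines by over 1.5 times. Letters B and C alone, added after the data were seen, gave 9, 10, 2 and 10 members with 059, 062, 543 and 603, 5 and 2 with both MSH3 and both MSH6 hairpins, 8 between MSH3 and MSH6, 6 for 603 against 543 and 7 for 062 against 059, with 2 arrays in each group.

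Leaving out each array gave 0 to 1 members with 603, 1 to 2 between MSH3 and MSH6, 25 to 34 for HCT116 against KLE, 23 to 29 for MCF10A against KLE and 24 to 35 for HCT116 against MCF10A, and 0 in the other hairpin comparisons. Medians ran between -0.17 and -0.07 (059), -0.08 and -0.03 (062), -0.02 and 0.11 (543), -0.06 and 0.01 (603), -0.12 and -0.03 (both MSH3), -0.02 and 0.08 (both MSH6), -0.14 and -0.09 (MSH3 against MSH6), -0.12 and -0.03 (603 against 543), 0.08 and 0.13 (062 against 059), 0.27 and 0.42 (HCT116 against KLE), -0.28 and -0.21 (MCF10A against KLE) and 0.47 and 0.61 (HCT116 against MCF10A). Without the A array of hairpin 059, HMMR passed with 603 (adjusted p = 0.0122). In the lines, KIF4A in HCT116 against KLE lost its call without shCTRL B, shCTRL C or HCT116 replicate 2. BUB1 lost it there without HCT116 replicate 3 (adjusted p = 0.0507), and CCNB1 against MCF10A without HCT116 replicate 1 or 3. AURKA in HCT116 against KLE lost it without 6 of the 9 arrays, PLK1 in MCF10A against KLE without 4 and MKI67 there without 8, and CDC25C in HCT116 against MCF10A without 5. MSH6 with hairpin 603 lost its call without 4 of the 15 arrays. Of the gene differences between groups followed through these runs, none that passed changed sign, while the 543, 603 and both-MSH6 medians crossed 0. Differences between letters did change sign under scaling by the array median. ANLN went from -0.28 to 0.20 for A against B and AURKB from -0.33 to 0.10 for A against C. TOP2A changed sign against B as well.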
